A study of Mus musculus with 8 samples.

Results

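The Hox clusters of the mouse hold, besides the Hox transcription factor genes, a small number of microRNA (miRNA) genes. Those read by the TaqMan miRNA card A were described here: mmu-miR-10a, mmu-miR-10b, mmu-miR-196b, rno-miR-196c and mmu-miR-615-3p, which are 5 of the 375 miRNA assays of the card. They were chosen by name, as miRNAs of the Hox clusters, and all 5 passed the filter on low values. The RNA came from the lumbar ventral spinal cord of mice of the FVB strain aged 4 months, with 4 wild type samples (FVB) and 4 samples of the genotype MLC/SOD1[G93A] (MSOD). The transgene of the MSOD mice expresses mutant SOD1 from a myosin light chain promoter, which the study describes as specific for muscle, and its expression in the cord is not read by the card. The sources used here do not say that each sample came from a separate animal, and the p-values then measure the spread between samples, which may be technical.

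Hox genes are arranged along each cluster in the order in which they act along the body axis, from the hindbrain to the tail, and they give the neurons of each level of the cord, motor neurons included, their identity. The low numbered genes act from the hindbrain onwards, whereas those with numbers around 10 are known for their role at lumbar levels. A miRNA pairs with messenger RNAs mainly through its seed, bases 2 to 8, and lowers their output. The miR-10 genes lie beside the genes of group 4, the miR-196 genes beside those of group 9 and 10, and several Hox messenger RNAs are known targets of both families.

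The mature sequences are shown because they show which members share a seed and how alike the assayed molecules are. They are the RefSeq entries on GRCm38.p6, written 5′ to 3′ with the seed in capitals, and 4 of the 5 members matched an entry by name.
mmu-miR-10a: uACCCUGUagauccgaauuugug
mmu-miR-10b: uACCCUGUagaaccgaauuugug
mmu-miR-196b: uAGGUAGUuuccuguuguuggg
mmu-miR-615-3p: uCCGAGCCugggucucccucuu
rno-miR-196c, an assay designed for the rat miRNA, matched no mouse entry and is given by name, without a sequence or gene position. Which mouse miRNA this assay reads was not tested, which limits all its values below.

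The 4 members with a sequence fell into 3 seed groups. mmu-miR-10a and mmu-miR-10b have the same length of 23 bases and the same seed, and differ by 1 substitution, U12A, counted from the 5′ end with the base of mmu-miR-10a first. No other miRNA among the 1679 distinct mature sequences had their seed, which 2 of them (0.119%) hold. The seed of mmu-miR-196b was likewise held by 2 of the 1679 (0.119%), the other one being mmu-miR-196a, and that of mmu-miR-615-3p by no other (0.0596%).

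The miRNA genes lie in all 4 clusters. Mir10a lies at chr11:96317165-96317274 on the plus strand, within the annotated span of Hoxb3 and 993 bases from Hoxb4. Mir10b lies at chr2:74726070-74726137 on the plus strand, within the spans of both Hoxd3 and Hoxd4. Mir615 lies at chr15:103014910-103015001 on the plus strand, within the span of Hoxc5. Mir196b lies at chr6:52230081-52230165 on the minus strand, in no Hox gene span, 2711 bases from Hoxa9 and 1032 bases from Hoxa10. The map of the clusters shows that the 2 miR-10 genes and Mir615 sit among the genes of group 3 to 5, and Mir196b among those of group 9 and 10. Only gene spans were used here, so exons and introns were not told apart.

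**Figure D1:**
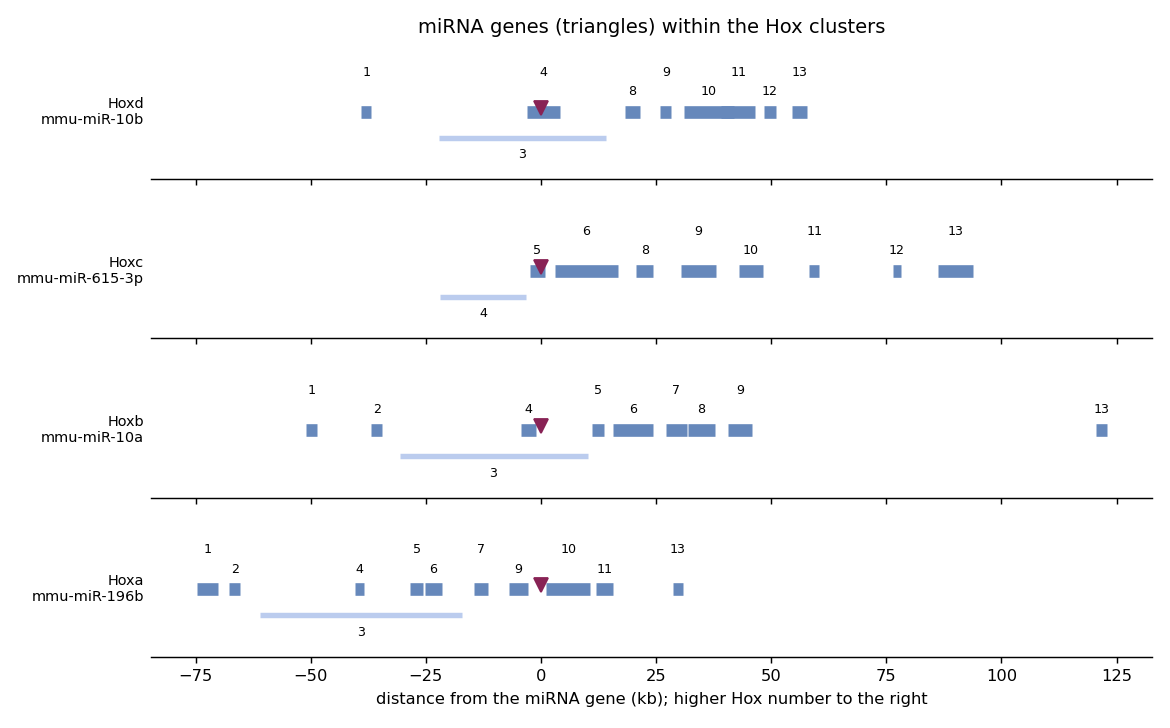
Position of the miRNA genes (triangles, at 0) among the Hox genes of their cluster, with the distance from the miRNA gene in kb on the x axis and higher Hox numbers to the right. Bars are annotated gene spans, numbered by Hox group, and spans over 15 kb are drawn below the others in a paler shade. Mir10b, Mir615 and Mir10a lie by groups 3 to 5, and Mir196b between Hoxa9 and Hoxa10.

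The readout of an assay is its threshold cycle (Ct), the PCR cycle at which the fluorescence crosses a set level. More RNA gives a lower Ct, by about 1 cycle for 2 times as much RNA where the product doubles at each cycle. A Ct over 35 was taken as missing. The number of miRNAs with a Ct of 35 or less was 239 to 256 per sample, and the 227 miRNAs that had one in 3 or 4 samples of both groups were tested. The log2 level of a miRNA is the Ct of a reference minus the Ct of the miRNA, and both references of the study were used: the small nuclear RNA U6, as the mean of its 4 wells, and the global mean, which averages the Ct of the 190 miRNAs that no sample lacked. The mean Ct of U6 was 18.06 ± 0.43 (SD, n = 4) in FVB and 17.96 ± 0.76 (SD, n = 4) in MSOD samples. That of the global mean was 28.40 ± 0.45 (SD, n = 4) and 28.66 ± 0.26 (SD, n = 4). A card has no read depth, and the number of cards limits the precision.

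Sample FVB 1 and the MSOD sample in column 7a stood apart from the others on the scale relative to U6. Their U6 Ct values, 17.45 and 16.88, were the lowest of the 8 samples, and FVB 1 also had the highest global mean Ct (29.00). In column 7a the 4 U6 wells lay 2.14 cycles apart. The wells also lay 1.97 cycles apart in column 8a and 1.05 in column 6a, against 0.39 to 0.78 in the other samples. The change of each member is given with and without FVB 1 and column 7a.

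The tissue label was compared with marker miRNAs of cell types. A summed level covers the markers of a list that were measured in all 8 samples. These were 2 of 3 for sensory ganglia, 5 of 6 for microglia and leukocytes, and 3 of 4 for mesenchyme and vessel wall. All 8 neuronal markers on the list, among them mmu-miR-124 and mmu-miR-9, were measured in every sample, as were both oligodendrocyte markers. Striated muscle miRNAs (mmu-miR-1, mmu-miR-133a and mmu-miR-133b) were measured in every sample too, with a summed log2 level relative to the global mean of 3.90 to 5.31 in FVB and 3.76 to 5.41 in MSOD samples. No other level of the cord and no brain were profiled, so the Hox cluster miRNAs can be described in lumbar cord but not compared along the body axis.

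All 5 members gave a Ct in 7 or 8 samples of lumbar ventral cord, and mmu-miR-10b gave by far the strongest reading of them. Its Ct was 25.60, 24.52, 24.35 and 24.19 in FVB 1 to 4, and 24.98, 24.80, 25.23 and 24.33 in the MSOD columns 5a to 8a. The Ct of mmu-miR-10a was 28.94, 27.22, 27.02 and 27.30 in FVB, and 28.48, 27.79, 27.89 and 27.70 in MSOD samples. Each of the 8 samples thus read mmu-miR-10b at least 2.66 cycles before its close relative.

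mmu-miR-615-3p, which is made from the 3′ arm of a hairpin within the Hoxc5 span, had a Ct of 29.24, 26.91, 26.40 and 26.23 in FVB, and of 27.98, 26.84 and 27.80 in MSOD columns 5a, 6a and 8a. In column 7a its well was undetermined. It was the only one of 107 assays with a Ct of 30 or less on all the other cards that had no Ct of 35 or less there, whereas 9 of 116 such assays were missing in column 8a and none in the other 6 samples. The other arm of the hairpin, mmu-miR-615-5p, had a Ct of 35.98, 35.72 and 34.68 in FVB 1, 2 and 4 and of 33.53 in column 5a, with no Ct in the other samples, and was not tested. The 3′ arm therefore gave the earlier Ct in each of the 4 samples where both arms had one.

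The miR-196 family was read last on average. The Ct of mmu-miR-196b was 27.57, 28.07, 27.95 and 27.84 in FVB, and 28.90, 28.57, 28.03 and 27.82 in MSOD samples. That of rno-miR-196c was 30.04, 30.75, 30.01 and 30.12 in FVB, and 31.97, 31.83, 30.49 and 30.38 in MSOD samples. The MSOD columns 5a and 6a had the highest Ct of both assays.

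Averaged over all samples, the log2 level relative to the global mean was 3.78 ± 0.24 (SD, n = 8) for mmu-miR-10b, 1.16 ± 0.84 (SD, n = 7) for mmu-miR-615-3p, 0.74 ± 0.41 (SD, n = 8) for mmu-miR-10a, 0.44 ± 0.47 (SD, n = 8) for mmu-miR-196b and -2.17 ± 0.67 (SD, n = 8) for rno-miR-196c. The order was the same in the FVB samples alone and in the MSOD samples alone. Assays can differ in efficiency, so this is an order of readings and not of molecules. Among the 227 miRNAs tested, mmu-miR-10b ranked 18, mmu-miR-615-3p 64, mmu-miR-10a 76, mmu-miR-196b 85 and rno-miR-196c 157.

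**Figure D2:**
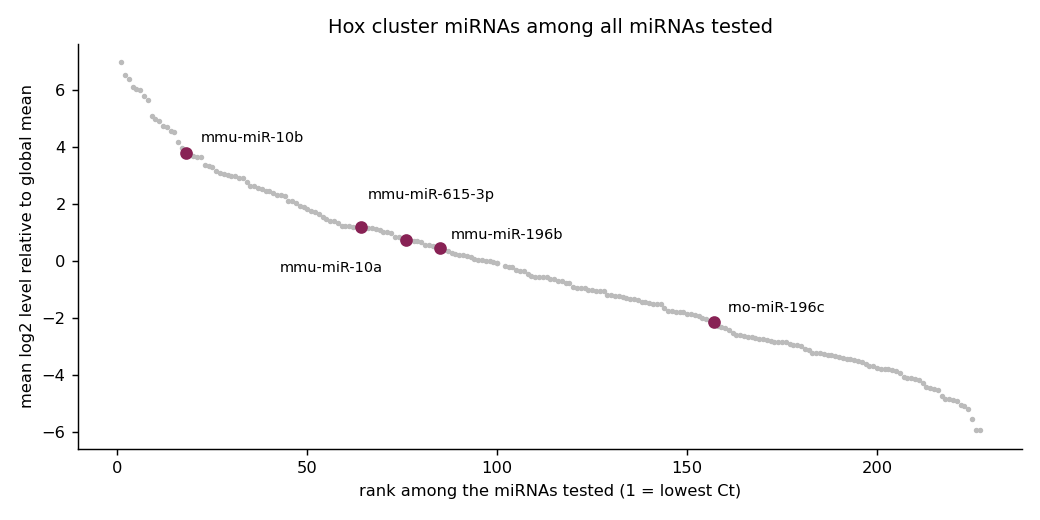
Mean log2 level relative to the global mean (y axis) of each of the 227 miRNAs tested (grey points), against its rank (x axis, 1 being the lowest Ct). The Hox cluster miRNAs are the large points, with mmu-miR-10b at rank 18, 3 members at ranks 64 to 85 and rno-miR-196c at rank 157.

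Neighbours in this order were compared by their Ct difference on the same card, which needs no reference (4 comparisons, two-sided exact permutation tests by sign). The neighbours were taken from the order in the same samples, so these p-values give no order of abundance. Where all differences of a pair have the same sign, the p is the smallest possible, however uneven the differences are. mmu-miR-10b was above mmu-miR-615-3p by 2.66 ± 0.70 (SD, n = 7) on the log2 scale, in 7 of 7 samples (exact p = 0.0156, the smallest that 7 samples allow, adjusted p = 0.0313). mmu-miR-196b was above rno-miR-196c by 2.61 ± 0.40 (SD, n = 8), in 8 of 8 samples (exact p = 0.00781, the smallest that 8 samples allow, adjusted p = 0.0313). The 3 members in the middle lay closer together. mmu-miR-615-3p was above mmu-miR-10a by 0.44 ± 0.51 (SD, n = 7), in 5 of 7 samples (exact p = 0.0781, adjusted p = 0.104), and mmu-miR-10a was above mmu-miR-196b by 0.30 ± 0.74 (SD, n = 8), in 7 of 8 samples (exact p = 0.273, adjusted p = 0.273). The latter result rested on FVB 1, which alone had the opposite sign. Without that sample, mmu-miR-10a was above mmu-miR-196b by 0.54 ± 0.33 (SD, n = 7), in 7 of 7 samples (exact p = 0.0156, adjusted p = 0.0313). Leaving out the only sample of the opposite sign fixed this exact p at the smallest that 7 samples allow, so nothing is drawn from it. Also without FVB 1, mmu-miR-615-3p was above mmu-miR-10a by 0.56 ± 0.43 (SD, n = 6), in 5 of 6 samples (exact p = 0.0625, adjusted p = 0.0625).

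Mir10b and Mir10a hold the same place, beside group 4, in the Hoxd and Hoxb clusters, and their readings lay 2.66 to 3.50 cycles apart. Mir196b lies at the more posterior groups 9 and 10, and its miRNA read within 1.37 cycles of mmu-miR-10a in every sample. The 2 miR-10 miRNAs were thus farther apart in reading than mmu-miR-10a and mmu-miR-196b. mmu-miR-615-3p, whose gene also lies among groups 3 to 5, read -0.30 to 1.07 above mmu-miR-10a on the log2 scale (n = 7). mmu-miR-10b read 1.97 to 3.92 above mmu-miR-196b. Assays can differ in efficiency, so these readings do not relate the level of a miRNA to its place in a cluster.

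The question of the comparison was whether these miRNAs differ in the cord of mice that express mutant SOD1 in muscle. Relative to U6, 0 of the 5 members had an adjusted p under 0.05 in limma with Benjamini-Hochberg adjustment over all 227 miRNAs (background 0%), and 0 had an unadjusted p under 0.05. The exact Mann-Whitney and the exact permutation test of each miRNA also gave 0 members at an unadjusted p under 0.05, and an ordinary linear model gave 1, rno-miR-196c, lower in MSOD samples (unadjusted p = 0.0290, adjusted p = 0.979). Of all miRNAs tested, 2.2% were lower and 0.441% higher in MSOD samples at an unadjusted p under 0.05. The groups overlapped for each member, against 1.32% of all miRNAs without overlap and lower and 0.441% without overlap and higher. The log2 change was negative for 5 of 5 members, with a median of -0.44. It was also negative for 77.5% of all miRNAs tested, whose median was -0.31. These medians depended on FVB 1 and column 7a. The median of the members was -0.97 without FVB 1, -0.11 without column 7a and -0.75 without both, and that of all miRNAs -0.71, 0.07 and -0.32.

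Relative to the global mean, again 0 of 5 members had an adjusted p (background 0%) or an unadjusted p under 0.05. At an unadjusted p under 0.05, 5.73% of all miRNAs were lower and 3.52% higher in MSOD samples by limma, and without overlap between the groups 2.2% were lower and 2.2% higher. The log2 change was negative for 4 of 5 members against 46.3% of all miRNAs, with a median of -0.11 against 0.04, and without FVB 1 and column 7a the median was -0.38 against 0.05. Some of the members are among the miRNAs that the study itself selected on these samples, so their direction relative to U6 is not independent evidence. In whole tissue, a lower level of a miRNA because of fewer cells that make it and a lower level per cell cannot be told apart.

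rno-miR-196c, the assay that matched no mouse entry, had the largest change of the members under both references. Relative to U6 its log2 level was -12.59, -12.55, -11.57 and -11.98 in FVB, and -13.47, -13.33, -13.61 and -12.42 in MSOD samples. The MSOD column 8a lay within the FVB range and the other 3 MSOD samples below it. The log2 change was -1.04 (standard error 0.57, 95% interval -2.23 to 0.16, adjusted p = 0.975 from limma, exact permutation p = 0.0857).

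With the global mean as reference the level of rno-miR-196c was -1.04, -2.27, -1.90 and -2.10 in FVB, and -3.19, -2.96, -1.80 and -2.11 in MSOD samples. Only columns 5a and 6a lay below the FVB range, and the log2 change was -0.69 (standard error 0.39, 95% interval -1.56 to 0.19, adjusted p = 0.637 from limma, exact permutation p = 0.229). Without FVB 1 and column 7a the change was -1.04 relative to U6 (adjusted p = 0.262 from limma) and -0.67 relative to the global mean (adjusted p = 0.332 from limma).

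mmu-miR-196b had a level relative to U6 of -10.12, -9.87, -9.51 and -9.70 in FVB, and of -10.40, -10.07, -11.15 and -9.86 in MSOD samples. The log2 change was -0.57 (standard error 0.56, 95% interval -1.75 to 0.61, adjusted p = 0.975 from limma, exact permutation p = 0.143). Its levels relative to the global mean were 1.43, 0.41, 0.16 and 0.18 in FVB, and -0.12, 0.30, 0.66 and 0.45 in MSOD samples. FVB 1 was the highest of the 8 samples on this scale, and the log2 change of -0.22 (95% interval -0.96 to 0.52, adjusted p = 0.955 from limma) was 0.07 without it. Without FVB 1 and column 7a the change was -0.42 with U6 and -0.05 with the global mean as reference.

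mmu-miR-10a had a level relative to U6 of -11.49, -9.02, -8.58 and -9.16 in FVB, and of -9.98, -9.29, -11.01 and -9.74 in MSOD samples. FVB 1 and column 7a were the lowest of their groups, and the log2 change was -0.44 (standard error 0.68, 95% interval -1.87 to 0.99, adjusted p = 0.975 from limma). Without FVB 1 alone it was -1.09, and without column 7a alone -0.11. Without both of them it was -0.75 (standard error 0.30, unadjusted p = 0.0392 and adjusted p = 0.285 from limma), and -0.38 relative to the global mean (adjusted p = 0.544 from limma). With all samples, the levels relative to the global mean were 0.06, 1.26, 1.09 and 0.72 in FVB, and 0.30, 1.08, 0.80 and 0.57 in MSOD samples, with a log2 change of -0.09 (standard error 0.31, 95% interval -0.79 to 0.61, adjusted p = 0.978 from limma).

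mmu-miR-10b, the member with the strongest reading, had a level relative to U6 of -8.15, -6.32, -5.91 and -6.05 in FVB, and of -6.48, -6.30, -8.35 and -6.37 in MSOD samples. FVB 1 and column 7a again lay lowest, each below the rest of its group, and the log2 change was -0.27 (standard error 0.67, 95% interval -1.68 to 1.14, adjusted p = 0.975 from limma). The most even member relative to the global mean, it had levels of 3.40, 3.96, 3.76 and 3.83 in FVB and of 3.80, 4.07, 3.46 and 3.94 in MSOD samples. The log2 change was then 0.08 (standard error 0.23, 95% interval -0.44 to 0.61, adjusted p = 0.978 from limma), so that its sign differed between the references. Without FVB 1 and column 7a it was -0.29 with U6 and 0.08 with the global mean as reference.

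mmu-miR-615-3p had a level relative to U6 of -11.79, -8.71, -7.96 and -8.09 in FVB, and of -9.48, -8.34 and -9.84 in MSOD columns 5a, 6a and 8a. FVB 1 was the lowest of the 7 samples, and the log2 change was -0.08 (standard error 0.84, 95% interval -1.86 to 1.69, adjusted p = 0.975 from limma). The levels relative to the global mean were -0.24, 1.57, 1.71 and 1.79 in FVB, and 0.80, 2.03 and 0.47 in MSOD samples, with a log2 change of -0.11 (standard error 0.58, 95% interval -1.42 to 1.21, adjusted p = 0.978 from limma). Column 7a, which was missing, did not enter these values. Without FVB 1 too, the log2 change was -0.97 relative to U6 (adjusted p = 0.347 from limma) and -0.60 relative to the global mean (adjusted p = 0.506 from limma).

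**Figure D3:**
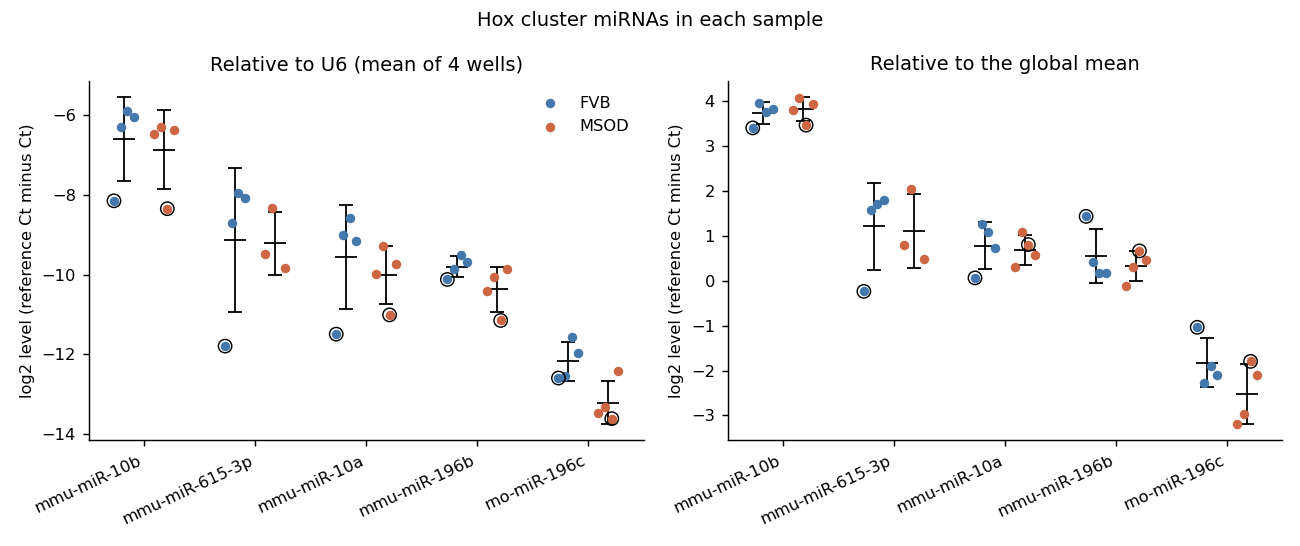
Log2 level (reference Ct minus Ct) of the 5 Hox cluster miRNAs in each FVB (blue) and MSOD (orange) sample, relative to U6 (left) and to the global mean (right). Bars show the mean and SD of each group, and rings mark FVB 1 and MSOD column 7a. The groups overlap for each member. Relative to U6, FVB 1 is the lowest of its group for all 5 members, and column 7a for each member measured there.

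The size and the sign of the smaller changes depended on the small RNA that served as reference. With Y1 the log2 change of mmu-miR-10b was 0.67 and that of rno-miR-196c -0.10, whereas with the first U6 well alone they were -1.08 and -1.85. The median of all 227 miRNAs moved alike, from 0.64 with Y1 to -1.12 with that well. rno-miR-196c was the only member that was negative with each of the references plotted.

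**Figure D4:**
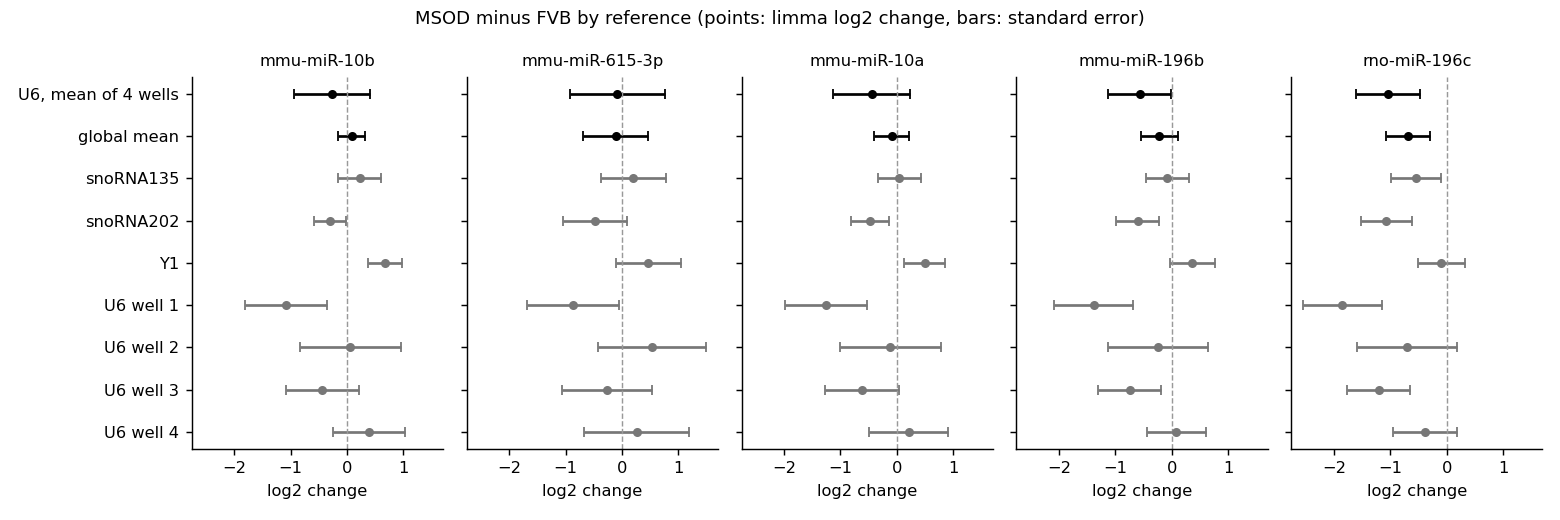
Log2 change, MSOD minus FVB (x axis), of each Hox cluster miRNA with 9 references (y axis); points are limma estimates and bars the standard error, with the mean of the U6 wells and the global mean in black. U87, with which all changes were far lower, is not drawn. Each member moves to the right with Y1 and to the left with U6 well 1, and rno-miR-196c stays below 0 throughout.

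Differences between members on the same card do not depend on any reference. For the 10 pairs of members, 0 had an adjusted p under 0.05 and the smallest exact permutation p was 0.143 (adjusted p = 0.905). mmu-miR-10b exceeded mmu-miR-10a by 3.34, 2.70, 2.67 and 3.11 on the log2 scale in FVB, and by 3.50, 2.99, 2.66 and 3.37 in MSOD samples. The means were 2.96 ± 0.33 (SD, n = 4) and 3.13 ± 0.38 (SD, n = 4), so that the difference of 0.18 between the groups was smaller than either SD (two-sided exact permutation p = 0.543). FVB 1 (3.34) and column 7a (2.66) did not stand apart from the other samples for this pair.

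In the miR-196 pair, mmu-miR-196b exceeded rno-miR-196c by 2.47, 2.68, 2.06 and 2.28 in FVB, and by 3.07, 3.26, 2.46 and 2.56 in MSOD samples. The means were 2.37 ± 0.26 (SD, n = 4) and 2.84 ± 0.39 (SD, n = 4), with a difference of 0.47 that was larger than either SD and had the smallest p of the 10 pairs (two-sided exact permutation p = 0.143, adjusted p = 0.905). Columns 5a and 6a were the highest.

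FVB 1 stood apart from the other wild type samples in the differences between families. mmu-miR-10b exceeded mmu-miR-196b by 1.97 in FVB 1 and by 3.55, 3.60 and 3.65 in the other FVB samples, against 3.92, 3.77, 2.80 and 3.49 in MSOD samples. mmu-miR-10a minus mmu-miR-196b was -1.37 in FVB 1 and 0.85, 0.93 and 0.54 in the others, against 0.42, 0.78, 0.14 and 0.12 in MSOD samples. mmu-miR-615-3p minus mmu-miR-196b was -1.67 in FVB 1 and 1.16, 1.55 and 1.61 in the others, against 0.92, 1.73 and 0.02 in MSOD samples. In FVB 1 the marker sums relative to the global mean were also the highest of the wild type samples for 5 of the 8 lists: neurons (8.48, against 7.63 to 7.82), striated muscle (5.31, against 3.90 to 4.16), endothelium (7.21, against 6.32 to 6.53), microglia and leukocytes (5.08, against 4.18 to 4.72) and oligodendrocytes (0.97, against 0.53 to 0.93). They were the lowest for mesenchyme and vessel wall (1.41, against 2.72 to 3.47) and sensory ganglia (0.22, against 0.24 to 1.19). Relative to U6, FVB 1 was instead the lowest wild type sample for every list, with neurons at -3.07 against -2.46 to -2.05. Relative to the global mean, column 7a was the highest MSOD sample for neurons (8.26), striated muscle (5.41), endothelium (6.90), microglia and leukocytes (4.57) and red blood cells (3.16). It was the lowest MSOD sample for oligodendrocytes (0.08) and sensory ganglia (1.12). The part of these sums in the result was not tested.

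**Figure D5:**
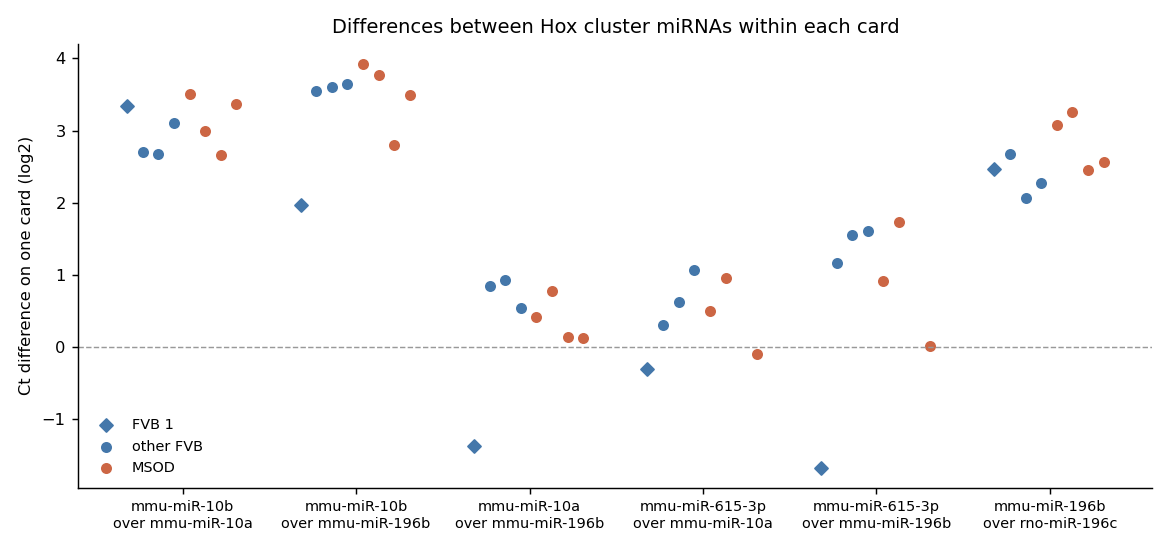
Ct difference between 2 Hox cluster miRNAs on the same card, on the log2 scale (y axis), for 6 of the 10 pairs (x axis). Each point is 1 sample, with FVB in blue (FVB 1 as a diamond) and MSOD in orange. FVB 1 lies with the others for the miR-10 pair and the miR-196 pair and below them where mmu-miR-10b, mmu-miR-10a or mmu-miR-615-3p is set against mmu-miR-196b.

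The closest relatives of miR-10 outside the Hox clusters are miR-99 and miR-100, shown because they have another seed but share runs of letters with miR-10.
mmu-miR-99a: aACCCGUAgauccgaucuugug
mmu-miR-99b: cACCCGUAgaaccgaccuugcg
mmu-miR-100: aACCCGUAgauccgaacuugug
The longest run of letters that mmu-miR-10a shares with mmu-miR-100 is 11 bases and with mmu-miR-99a 10 bases, and the longest that mmu-miR-10b shares with mmu-miR-99b is 10 bases. The longest run is only 5 bases for mmu-miR-10a with mmu-miR-99b and for mmu-miR-10b with mmu-miR-99a or mmu-miR-100. Each run starts within the seeds, at base 7 of miR-10 and base 6 of the relative. All 3 relatives were tested. Relative to the global mean their log2 change was 0.40 for mmu-miR-99a, 0.43 for mmu-miR-99b and -0.09 for mmu-miR-100, and relative to U6 it was 0.05, 0.08 and -0.44. None of them had an unadjusted p under 0.05 in limma.

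Among the 6 differences between a miR-10 and a miR-99/100 assay on the same card, which were chosen after the data were seen, that of mmu-miR-10a against mmu-miR-99b did not overlap between the groups. It was -0.01, -0.23, 0.10 and -0.33 in FVB, and -0.74, -0.44, -0.80 and -0.57 in MSOD samples, with means of -0.12 ± 0.20 (SD, n = 4) and -0.64 ± 0.16 (SD, n = 4). The two-sided exact permutation p was 0.0286, the smallest that 4 against 4 allow, and 0.171 after adjustment over the 6. Of all pairs of assays measured in all 8 samples, 4.91% had groups that did not overlap. The differences of mmu-miR-10b were -0.32 against mmu-miR-99a, -0.35 against mmu-miR-99b and 0.17 against mmu-miR-100, with exact permutation p from 0.343 to 0.429. Without column 7a they were -0.06, -0.13 and 0.06, and without FVB 1 they were -0.17, -0.18 and 0.18.

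The miR-196 seed is found in the let-7 family with a shift of 1 base, as the sequence of let-7a shows.
mmu-let-7a: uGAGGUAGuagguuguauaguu
Its capitals mark its own seed. The letters AGGUAGU of the miR-196 seed were held by 8 of the 9 let-7 and miR-98 sequences (not by let-7e), and by 13 of the 1679 mature miRNAs (0.774%). All 9 were tested. Relative to U6 the log2 change was negative for 7 of 9 (median -0.31), against 77.5% of all miRNAs tested (median -0.31). With the global mean it was negative for 4 of 9 (median 0.04), against 46.3% of all miRNAs (median 0.04). Relative to the global mean it ranged from -0.32 for mmu-let-7b to 0.68 for mmu-let-7e, and none of the 9 had an unadjusted p under 0.05 in limma.

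The miRNAs whose levels ran closest to each member were found from the root mean square difference of their levels relative to the global mean, each centred on its own mean, over the 8 samples. For mmu-miR-10b these were mmu-miR-125b-5p (0.106), mmu-miR-30a (0.113) and mmu-miR-30d (0.118), against a median of 0.475 over the 190 miRNAs measured in all samples. For mmu-miR-10a they were mmu-miR-29a (0.248), mmu-miR-544 (0.255) and mmu-let-7c (0.272), against a median of 0.586. The nearest profile was thus closer for mmu-miR-10b than for mmu-miR-10a.

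For mmu-miR-196b the closest were mmu-miR-194 (0.196), mmu-miR-34b-3p (0.290) and mmu-miR-126-3p (0.291), against a median of 0.604. For rno-miR-196c they were mmu-miR-106a (0.368), mmu-miR-196b (0.370) and mmu-miR-194 (0.426), against a median of 0.780. Both miR-196 assays therefore had mmu-miR-194 among the closest, and rno-miR-196c had mmu-miR-196b. mmu-miR-615-3p was missing in 1 sample and was not ranked. In the order of mean level, mmu-miR-10b lay between mmu-miR-384-5p and mmu-miR-150, mmu-miR-10a between mmu-miR-491 and mmu-miR-210, mmu-miR-196b between mmu-miR-335-5p and mmu-miR-219, and rno-miR-196c between rno-miR-346 and mmu-miR-181c.

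Among the other cell types, the summed level of sensory ganglion miRNAs relative to the global mean was 0.22 to 1.19 in FVB and 1.12 to 1.86 in MSOD samples (difference 0.76, two-sided exact permutation p = 0.0571). This sum covers only 2 of the 3 on the list (mmu-miR-182, mmu-miR-183 and mmu-miR-96), those measured in all samples. All 3 were tested, and 2 of the 3 had an unadjusted p under 0.05 in limma. The sums of the other lists also overlapped between the groups: neurons 7.63 to 8.48 and 7.80 to 8.26, oligodendrocytes 0.53 to 0.97 and 0.08 to 0.94, microglia and leukocytes 4.18 to 5.08 and 4.37 to 4.57, red blood cells 2.20 to 3.45 and 1.99 to 3.16, mesenchyme and vessel wall 1.41 to 3.47 and 2.17 to 3.09, and endothelium 6.32 to 7.21 and 6.36 to 6.90. Of their tested miRNAs, 1 of 2 for oligodendrocytes and 1 of 5 for microglia and leukocytes had an unadjusted p under 0.05 in limma, and none in the others. These counts are relative to the global mean, where 5.73% of all miRNAs were lower and 3.52% higher at that threshold. Relative to U6, the sensory ganglion sum differed by 0.40 (two-sided exact permutation p = 0.543). There, 0 of 3 sensory ganglion, 0 of 2 oligodendrocyte and 1 of 5 microglia and leukocyte miRNAs had an unadjusted p under 0.05 in limma. The part of these cell types in the levels of the Hox cluster miRNAs was not tested.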

How the data were processed

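Total RNA of lumbar ventral spinal cord was reverse transcribed with Megaplex primer pools and read on TaqMan miRNA card A. The Ct table that the authors deposited is not normalized and holds 100 miRNA values over 35. They also deposited a table on the log2 scale, the Ct minus the mean Ct of the 4 U6 wells, which served as an alternative, and a table of the ratios between the groups, their own comparison, which was not used. Columns of wild type samples are numbered as the labels number them. Those of MSOD samples are numbered 5a to 8a, unlike the labels, and were mapped to the group only.

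Levels were the Ct of the reference minus the Ct. Undetermined wells and Ct values over 35 were missing. A miRNA with 3 or more values in both groups was tested with limma 3.58.1 in R 4.3.3, with Benjamini-Hochberg adjustment over 227 miRNAs and a threshold of 0.05. Single values were compared with two-sided exact permutation tests (70 splits, or 35 with 4 against 3), and the scripts were tested on simulated data. Assay names without an arm were read as the 5p arm. All members were named, with the 3 miRNAs closest in profile to each member measured in all samples and its neighbours in level. The members and lists were chosen with earlier results of these data known. Alternatives were other references, the log2 table, other tests, looser and stricter rules for missing values, a Ct limit of 32 or 40, and leaving out samples. Of the listed red blood cell markers, 2 of 3 were analysed here.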

Additional observations from a re-analysis of the deposited data

Results flagged for a closer look

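Of 34 groups of values checked, 6 held a sample that lay far from the other samples of its group, and chance gives about 1 in 20. For mmu-miR-10b relative to U6, MSOD column 7a was at -8.35 and the other MSOD samples at -6.48 to -6.30. For mmu-miR-615-3p relative to the global mean, FVB 1 was at -0.24 and the other FVB samples at 1.57 to 1.79. The other 4 were differences between members on the card of FVB 1. mmu-miR-10b minus mmu-miR-196b was 1.97 there against 3.55 to 3.65, mmu-miR-10a minus mmu-miR-196b was -1.37 against 0.54 to 0.93, mmu-miR-615-3p minus mmu-miR-196b was -1.67 against 1.16 to 1.61, and mmu-miR-615-3p minus rno-miR-196c was 0.80 against 3.61 to 3.89. These 4 share the card and overlap in their assays, so they do not count as separate cases.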

How the results depend on the processing

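No member had an adjusted p under 0.05 under any alternative, the lowest being 0.164 for mmu-miR-10b and 0.176 for rno-miR-196c. The log2 change of rno-miR-196c was negative in all 31 alternatives to the result relative to U6. Other references are among these, and the range ran from -3.31 with U87 to -0.10 with Y1. For rno-miR-196c the change was also negative in all 11 alternatives to the result relative to the global mean (-0.93 to -0.43). It alone was lower at an unadjusted p under 0.05 with snoRNA202, U6 well 1, U6 well 3 and an ordinary linear model (1 member each, against 0), and with mmu-miR-10a without both FVB 1 and column 7a (2 members), a choice made after the data were seen. With Y1, 1 member, mmu-miR-10b, was higher. The median of the members was -2.84 with U87, where that of all miRNAs was -2.58.

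The sign of smaller changes turned with the reference. For mmu-miR-10b it was 0.0822 with the global mean, 0.0775 with the median, 0.22 with snoRNA135, 0.67 with Y1, 0.20 with the controls other than U6 and U87, 0.0625 with U6 well 2 and 0.39 with U6 well 4. For mmu-miR-10a it was 0.0475 with snoRNA135, 0.50 with Y1, 0.0225 with those controls and 0.21 with U6 well 4. For mmu-miR-196b it was 0.37 with Y1 and 0.0825 with U6 well 4. For mmu-miR-615-3p it was 0.20 with snoRNA135, 0.47 with Y1, 0.0642 with those controls, 0.54 with U6 well 2 and 0.26 with U6 well 4. The cause was not tested.

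Leaving out each sample in turn gave, relative to U6, a median of the members of -0.97 to -0.11, with -1.09 to -0.11 for mmu-miR-10a, -0.78 to 0.22 for mmu-miR-10b, -0.74 to -0.31 for mmu-miR-196b, -1.30 to -0.84 for rno-miR-196c and -0.97 to 0.31 for mmu-miR-615-3p. Relative to the global mean it gave -0.34 to 0.0658 for mmu-miR-10a, -0.0377 to 0.20 for mmu-miR-10b, -0.35 to 0.0673 for mmu-miR-196b and -0.60 to 0.19 for mmu-miR-615-3p, with 0 to 1 members lower at an unadjusted p under 0.05 (rno-miR-196c, without column 7a). For differences between members on the same card it gave -0.11 to 0.53 for mmu-miR-10b minus mmu-miR-196b, -0.41 to 0.36 for mmu-miR-10a minus mmu-miR-196b, -0.22 to 0.30 for mmu-miR-615-3p minus mmu-miR-10a, -0.55 to 0.66 for mmu-miR-615-3p minus mmu-miR-196b and -0.01 to 0.70 for mmu-miR-10b minus mmu-miR-615-3p. For the pairs with miR-99/100, added after the data were seen, it gave -0.27 to 0.18 for mmu-miR-10a minus mmu-miR-100 and -0.59 to -0.45 for mmu-miR-10a minus mmu-miR-99b, whose adjusted p was 0.0857 to 0.343. The lead of mmu-miR-10a over mmu-miR-196b did not pass the threshold with all samples. It passed without FVB 1, the only sample of the opposite sign. That choice was also made then and fixed the exact p in advance, so nothing is drawn from it.
No paired analysis was made, because the labels used here pair no FVB sample with an MSOD sample.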
